A study of Mus musculus with 15 samples.

Results

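The 9 genes described here encode G-protein coupled receptors through which islet cells sense incretins, glucagon, fatty acids, acetylcholine, adrenaline, somatostatin and calcium. They were taken by name (Glp1r, Gipr, Gcgr, Ffar1, Chrm3, Adra2a, Sstr3, Gpr119 and Casr) from a table of 48709 genes, before any filter. The samples were islets of 15 NOD females, an inbred mouse strain in which leukocytes enter the islets and diabetes later develops without treatment. The groups were 4, 6, 8, 10 and 12 weeks of age, with 3 mice in each and no other genotype or treatment. Per the methods of the study, the islets were freed with collagenase, separated on a density gradient and picked by hand, so each sample is a whole islet preparation with any leukocytes attached to it. The series states the gradual development of insulitis as its question.

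These receptors change the amount of hormone that islet cells release in response to glucose. Receptors that couple to Gs raise cAMP and those that couple to Gq release calcium from internal stores, and both strengthen insulin secretion in beta cells, whereas receptors that couple to Gi lower cAMP and restrain it. GLP-1 and GIP reach their receptors from the gut, while glucagon and somatostatin also come from neighbouring islet cells.

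Libraries held 25407492 to 41616275 counts, and each of the 9 receptors had at least 299 counts in every mouse. All 9 passed the filter on low counts, which kept 16554 genes. Levels below are CPM, counts scaled by TMM to a common library size, called the TMM scale or the scale of all RNA. They are not plain shares of the counts, as the TMM factors were 0.905 to 0.945 at 4 weeks and 1.07 to 1.14 at 12 weeks. The RNA of the whole preparation differed in composition between ages. The 11 leukocyte genes measured (such as Ptprc and Cd3e) summed to 33.9 to 185 CPM at 4 weeks and 1602 to 1877 CPM at 12 weeks, and all 11 rose. The 12 genes taken to mark all endocrine cells (such as Chga and Neurod1) summed to 25992 to 27368 CPM at 4 weeks and 12678 to 15791 CPM at 12 weeks, and 11 of 12 fell. Acinar genes varied between mice, from 1501 to 17755 CPM in sum, and 0 of 8 passed the test between 4 and 12 weeks (edgeR, smallest adjusted p = 0.307). Of 7 mesenchymal genes, 7 rose, and their sum went from 308 to 518 CPM at 4 weeks to 1096 to 1682 CPM at 12 weeks. In bulk samples, fewer cells of a type and less RNA per cell cannot be told apart.

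The stretches just upstream of 3 of the receptor genes are printed because these genes stood at the ends of the comparisons that follow: Casr showed the largest decrease between 4 and 12 weeks, Glp1r the smallest, and Gpr119 the largest difference between 6 and 8 weeks. They come from RefSeq on GRCm38.p6, read 5′ to 3′ on the strand of the gene, and capitals mark matches to the GC box GGGCGG on either strand. The positions are chr16:36562142-36562341 (minus strand) for Casr, chr17:30901617-30901816 (plus strand) for Glp1r and chrX:48674479-48674678 (minus strand) for Gpr119, all outside annotated exons.
Casr: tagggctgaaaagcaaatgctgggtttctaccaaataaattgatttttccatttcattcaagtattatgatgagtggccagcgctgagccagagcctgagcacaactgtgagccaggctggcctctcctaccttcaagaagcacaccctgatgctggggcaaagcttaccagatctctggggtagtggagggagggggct
Glp1r: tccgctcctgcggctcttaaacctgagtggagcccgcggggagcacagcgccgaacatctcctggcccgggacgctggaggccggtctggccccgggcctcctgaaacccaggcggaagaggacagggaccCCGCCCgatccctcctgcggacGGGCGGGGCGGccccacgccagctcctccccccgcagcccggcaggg
Gpr119: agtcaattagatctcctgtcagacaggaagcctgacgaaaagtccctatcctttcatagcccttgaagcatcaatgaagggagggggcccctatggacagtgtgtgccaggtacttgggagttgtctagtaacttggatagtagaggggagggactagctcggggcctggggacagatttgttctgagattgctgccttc

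The printed Glp1r stretch holds 20 CpG dinucleotides and 75.0% G or C, against 1 CpG and 50.5% in Casr and 2 CpG and 51.5% in Gpr119. Full windows of 300 bases, 250 before and 50 after the annotated start, were found for 8 of the 9 receptors (9 windows, 2 of them for Sstr3), and Gipr had no entry. Over all 32851 windows of that length the median was 52.7% G or C and 7 CpG. Glp1r (73.7%, 29 CpG), Gcgr (71.7%, 34 CpG), Adra2a (68.7%, 28 CpG), Chrm3 (57.3%, 11 CpG), Ffar1 (56.3%, 9 CpG) and one Sstr3 window (58.7%, 10 CpG) lay above both medians. Casr (49.7%, 4 CpG) and Gpr119 (50.3%, 4 CpG) lay below both, and the other Sstr3 window (57.3%, 1 CpG) lay below the CpG median alone. The letters searched on both strands were GGGCGG, present in 35.7% of all windows, TATAAA (13.6%), the E-box CATCTG (17.2%), the homeodomain core TAATTA (5.3%) and the cAMP response element TGACGTCA (1.8%). GGGCGG occurred 3 times in Glp1r (2 of the matches overlap), 2 times in Gcgr and 1 time in Adra2a. TATAAA occurred 1 time in Adra2a, and CATCTG 1 time each in Ffar1 and in one of the Sstr3 windows. The windows of Casr, Gpr119 and Chrm3 held none of these letters, and no member window held TAATTA or TGACGTCA. A match is a description of the letters, not a sign of binding.

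Between 4 and 12 weeks, 7 of the 9 receptors fell on the TMM scale, by 1.35-fold (Sstr3) to 2.15-fold (Casr), and none rose. Of all genes tested, 27.2% fell and 26.3% rose in the same comparison (edgeR quasi-likelihood test, adjusted p under 0.05), and the median log2 fold change was -0.67 over the receptors and -0.05 over all genes. Gcgr and Glp1r did not pass, and Sstr3 did not pass on library totals without TMM factors. In the deposited TPM, a level per transcript length and library, the mean of Glp1r was 171 at 4 weeks and 187 at 12 weeks. The other receptors had lower TPM means at 12 weeks, with Gcgr at 21.0 and 20.6. The endocrine genes fell in the same mice, with a median log2 fold change of -0.88. When the samples were scaled to those 12 genes instead, the direction turned for 7 of the 9 receptors: Glp1r, Gcgr, Sstr3 and Chrm3 were higher at 12 weeks, Adra2a, Ffar1 and Gpr119 lay above 0 without passing the test, and Casr alone was lower past the threshold.

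**Figure D1:**
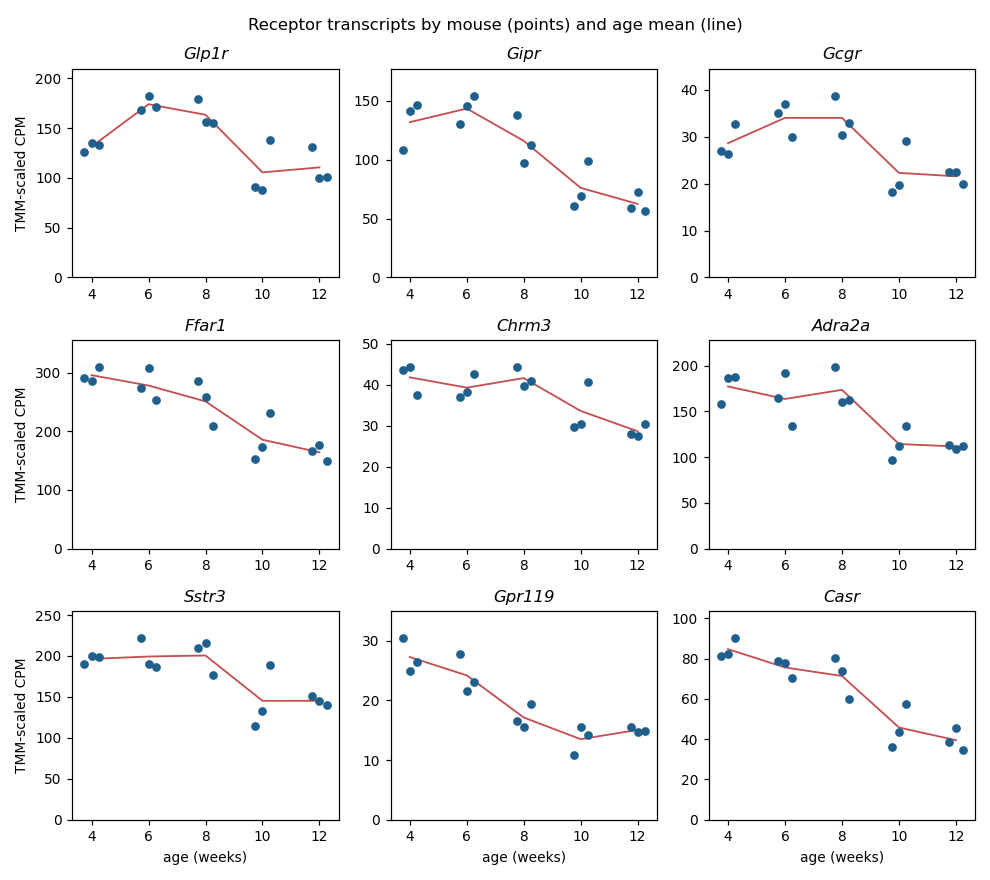
TMM-scaled CPM (y axis, from 0) of each receptor against age in weeks (x axis); points are single mice, 3 per age, set apart sideways by replicate, and the line joins the means. On the TMM scale, 8 of the 9 receptors have every 12-week mouse below every 4-week mouse, the exception being Glp1r, whose highest values are at 6 and 8 weeks. In the deposited TPM, Gcgr, Sstr3 and Chrm3 also overlap between these ages. Relative to endocrine genes the direction differs, as given in the text.

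Glp1r encodes the receptor for the gut hormone GLP-1, which couples to Gs and is the target of the GLP-1 drugs. It was at 126, 135 and 133 CPM in the 3 mice of 4 weeks and at 168, 182 and 171 CPM at 6 weeks. All 3 values at 6 weeks were above all 3 at 4 weeks. The mice of 8 weeks had 179, 156 and 155 CPM, those of 10 weeks 91.0, 88.0 and 138 CPM, and those of 12 weeks 131, 99.8 and 101 CPM. At 10 weeks the mouse of replicate 3 stood apart from its age, and at 12 weeks the highest mouse lay within the range of the 4-week mice. The mean was 131 ± 4.80 CPM (SD, n = 3) at 4 weeks and 111 ± 17.5 CPM (SD, n = 3) at 12 weeks, and the log2 fold change came to -0.25 (SE 0.15, edgeR adjusted p = 0.182). That value passed the threshold when the 10-week mouse of replicate 3 was left out of the fit (log2 fold change -0.25, edgeR adjusted p = 0.0449), and in no other alternative.

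Gipr encodes the receptor for the other incretin, GIP, and also couples to Gs. The mice of 4 weeks had 108, 142 and 146 CPM and those of 6 weeks 131, 146 and 154 CPM. At 8 weeks the values were 138, 97.3 and 113 CPM, at 10 weeks 60.4, 69.1 and 98.8 CPM, and at 12 weeks 59.1, 72.2 and 56.1 CPM. Every mouse of 12 weeks was below every mouse of 4, 6 and 8 weeks. Gipr fell by 1.08 on the log2 scale between 4 and 12 weeks (SE 0.19, edgeR adjusted p = 0.000678), from 132 ± 20.8 to 62.5 ± 8.59 CPM (SD, n = 3 each).

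Gcgr encodes the glucagon receptor, through which glucagon from alpha cells raises cAMP in beta cells. It was at 26.9, 26.3 and 32.7 CPM at 4 weeks, 35.0, 37.1 and 29.99 CPM at 6 weeks, 38.7, 30.4 and 33.0 CPM at 8 weeks, 18.1, 19.7 and 29.1 CPM at 10 weeks, and 22.5, 22.4 and 19.9 CPM at 12 weeks. The 12-week mice were below the 4-week mice with no overlap, but the log2 fold change of -0.41 (SE 0.16) did not pass the test (edgeR adjusted p = 0.0509). It passed when only these 2 ages were fitted (-0.36, edgeR adjusted p = 0.0279) and with the edgeR exact test (adjusted p = 0.0211). It also passed when any of 3 mice was left out, with edgeR adjusted p = 0.0472 without the 8-week mouse of replicate 1, 0.0366 without the 10-week mouse of replicate 1 and 0.0110 without the 10-week mouse of replicate 3. Gcgr overlaps the start of Gm11789 on the opposite strand without sharing an exonic base. Gm11789 had 958 counts over all mice against 12286 for Gcgr, and whether the counting used strand is not given in the sources used here.

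Of the receptors that couple to Gq, Ffar1 encodes the receptor for long-chain fatty acids. It was at 291, 286 and 309.6 CPM at 4 weeks, 274, 307 and 253 CPM at 6 weeks and 286, 258 and 209 CPM at 8 weeks. The 10-week mice had 153, 173 and 231 CPM and the 12-week mice 167, 176 and 149 CPM. No mouse of 12 weeks reached the lowest value of 4, 6 or 8 weeks. Ffar1 fell by 0.85 on the log2 scale between 4 and 12 weeks (SE 0.15, edgeR adjusted p = 0.000674), which is a 1.80-fold decrease.

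Chrm3 encodes the muscarinic receptor for acetylcholine from nerves. The values were 43.6, 44.4 and 37.5 CPM at 4 weeks, 37.1, 38.2 and 42.6 CPM at 6 weeks and 44.3, 39.7 and 41.0 CPM at 8 weeks, and these 3 ages overlapped. At 10 weeks they were 29.8, 30.5 and 40.6 CPM and at 12 weeks 28.1, 27.4 and 30.5 CPM. The 12-week mice were below all mice of 4, 6 and 8 weeks, with a decrease against 4 weeks of 0.55 on the log2 scale (SE 0.11, edgeR adjusted p = 0.00183). Its overlap with Gm26861 on the opposite strand involves 6 counts in all.

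Casr encodes the receptor for extracellular calcium, which couples to Gq and Gi. It was at 81.3, 82.5 and 90.1 CPM at 4 weeks, 78.7, 77.8 and 70.2 CPM at 6 weeks, and 80.3, 73.7 and 60.0 CPM at 8 weeks. The values then were 36.3, 43.7 and 57.4 CPM at 10 weeks and 38.4, 45.5 and 34.5 CPM at 12 weeks. No mouse of 10 or 12 weeks overlapped any mouse of the earlier ages. The mean went from 84.6 ± 4.80 to 39.5 ± 5.62 CPM (SD, n = 3 each) between 4 and 12 weeks, the largest decrease among the 9 at -1.10 on the log2 scale (SE 0.16, edgeR adjusted p = 0.000302). Gm25902, which lies within Casr, had 0 counts.

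Of the receptors that couple to Gi, Adra2a encodes the adrenergic receptor through which adrenaline restrains insulin secretion. It was at 158, 187 and 187 CPM at 4 weeks, 165, 192 and 134 CPM at 6 weeks and 199, 160.1 and 162 CPM at 8 weeks. The values at 10 weeks were 97.2, 112 and 134 CPM and those at 12 weeks 114, 109 and 112 CPM. The 12-week mice lay within a narrow band below all mice of 4, 6 and 8 weeks. Adra2a fell by 0.67 on the log2 scale between 4 and 12 weeks (SE 0.14, edgeR adjusted p = 0.00199).

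Sstr3 encodes one of the receptors for somatostatin from delta cells and is known as a protein of the primary cilium. The mice had 189.9, 200.2 and 199 CPM at 4 weeks, 222, 189.9 and 186 CPM at 6 weeks and 209.8, 215 and 177 CPM at 8 weeks. At 10 weeks they had 115, 132 and 188 CPM, the widest spread of any age for this gene, and at 12 weeks 151, 145 and 139.9 CPM. The fall of 0.43 on the log2 scale between 4 and 12 weeks was the smallest of those that passed (SE 0.15, edgeR adjusted p = 0.0235). It no longer passed when the 4-week mouse of replicate 2 or 3 or the 12-week mouse of replicate 2 or 3 was left out (edgeR adjusted p = 0.0589, 0.0597, 0.0536 and 0.0716), nor on library totals without TMM factors (log2 fold change -0.19, edgeR adjusted p = 0.268).

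Gpr119 encodes a lipid receptor that couples to Gs and answers oleoylethanolamide. It was at 30.5, 25.01 and 26.4 CPM at 4 weeks and 27.9, 21.6 and 23.1 CPM at 6 weeks. At 8 weeks it was at 16.5, 15.5 and 19.4 CPM, below every younger mouse. The 10-week mice had 10.8, 15.5 and 14.2 CPM and the 12-week mice 15.6, 14.7 and 14.96 CPM. Gpr119 fell by 0.86 on the log2 scale between 4 and 12 weeks (SE 0.14, edgeR adjusted p = 0.000518).

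In all, 8 of the 9 receptors had 12-week mice below all 4-week mice on the TMM scale, where 33.9% of all genes did so. An exact permutation test of 3 against 3 mice cannot go below p = 0.1, and it gave that value for each of these 8 (two-sided). Glp1r had an exact permutation p of 0.2. In the deposited TPM the mice of 4 and 12 weeks also overlapped for Gcgr (18.7 to 23.8 and 20.5 to 20.9), Sstr3 (94.6 to 96.9 and 90.2 to 96.1) and Chrm3 (15.9 to 19.4 and 14.9 to 18.2). Glp1r overlapped there too, and the other receptors did not. Over all 5 ages in a single test, 9 of 9 receptors varied (edgeR, adjusted p 0.0172 or less), against 56% of all genes. On library totals without TMM factors 7 of 9 passed, as Chrm3 (edgeR adjusted p = 0.0811) and Sstr3 (0.147) did not.

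The timing differed between receptors in its values, although the comparisons of neighbouring ages share groups and are not independent of each other. From 4 to 6 weeks, 0 of 9 passed, where 0.0906% of all genes did. Glp1r was the highest of the 9 in that step, with a log2 fold change of 0.40 (SE 0.15, edgeR adjusted p = 0.436), and groups that did not overlap, as for 17.6% of all genes. A fit of these 2 ages alone gave Glp1r the same fold change with edgeR adjusted p = 0.0321, and the edgeR exact test gave adjusted p = 0.00348. These settings called 141 and 265 of all genes, against 15 in the fit of all ages. Casr was at -0.16 (SE 0.15) with no overlap, and the other 7 receptors overlapped. At an edgeR p under 0.05 before adjustment, Glp1r was the only receptor to pass in this step, as 8.67% of all genes did.

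From 6 to 8 weeks, 0 of 9 receptors and 0 of all genes passed the edgeR quasi-likelihood test (0% called; 18% of all genes had an unadjusted p under 0.05). The edgeR exact test called 157 genes, no receptor among them, and DESeq2 called 558. Gpr119 had the largest difference, with a log2 fold change of -0.50 (SE 0.14, edgeR adjusted p = 0.172), and its groups did not overlap, as for 11.7% of all genes in this direction. DESeq2 gave Gpr119 an adjusted p of 0.0462 and was the only alternative to call it, as 1 of those 558 genes. The other 8 lay between -0.31 (Gipr) and 0.09 (Adra2a) on the log2 scale and overlapped.

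From 8 to 10 weeks, 6 of 9 receptors passed, all lower, where 8.37% of all genes were lower and 8.4% higher. Log2 fold changes were -0.64 for Casr, -0.63 for Glp1r, -0.61 for Gcgr and Gipr, -0.60 for Adra2a and -0.47 for Sstr3 (SE 0.14 to 0.19, edgeR adjusted p 0.0271 to 0.0466). Ffar1 (-0.44, edgeR adjusted p = 0.0560), Gpr119 (-0.34, 0.0971) and Chrm3 (-0.31, 0.0719) did not pass. The 2 ages did not overlap for Glp1r, Gcgr, Adra2a and Casr, as for 15.5% of all genes in this direction. These calls rest on the samples in the fit: 0 of 9 passed when the 8-week mouse of replicate 1 or 2 or the 10-week mouse of replicate 1 or 2 was left out, when only these 2 ages were fitted, with the replicate number as a block, and with the edgeR exact test, whereas 8 of 9 passed without the 10-week mouse of replicate 3. How many of all genes passed without that mouse is not given here, so the 8 of 9 cannot be set against a background. The fit of all samples called 2776 of all genes in this step. The edgeR exact test called 140, and each other setting that called 0 receptors called 0 genes. Gipr and Sstr3 passed in 5 and 4 of 22 alternatives. In the same step the summed leukocyte genes were at 134 to 794 CPM at 8 weeks and 801 to 1921 CPM at 10 weeks, and the summed endocrine genes at 20581 to 24251 CPM and 13004 to 20115 CPM. The 10-week mouse of replicate 3, which had the highest value of its age for 8 of the 9 receptors, also had the highest endocrine sum and the lowest leukocyte sum of its age. The part of these markers in the step was not tested beyond the scaling to endocrine genes given below.

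From 10 to 12 weeks, 0 of 9 receptors and 0 of all genes passed the edgeR quasi-likelihood test (0% called; 7.52% of all genes had an unadjusted p under 0.05). The edgeR exact test called 7 genes and DESeq2 12, no receptor among them. The log2 fold changes lay between -0.28 (Gipr) and 0.16 (Gpr119), and all 9 receptors overlapped, where 9.82% of all genes did not.

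**Figure D2:**
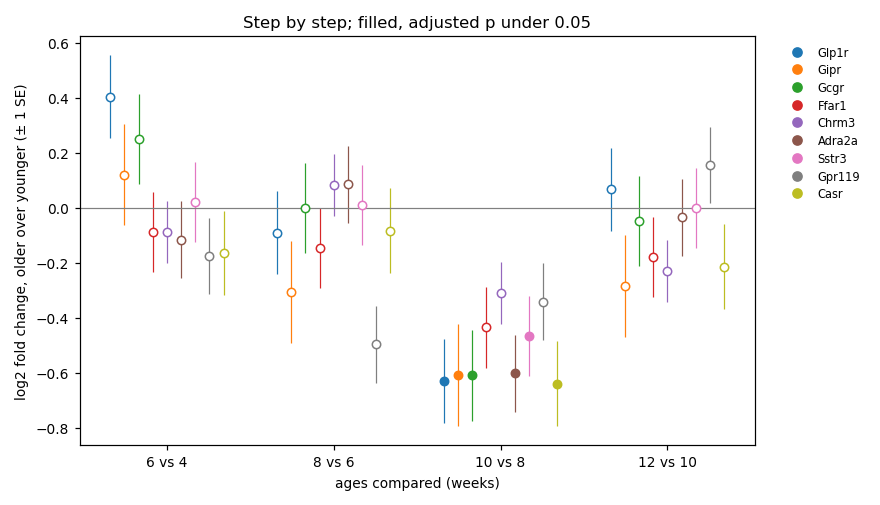
Log2 fold change of the older over the younger age (y axis, TMM scale, bars ± 1 SE) for each pair of neighbouring ages in weeks (x axis), with a colour for each receptor and filled points for an adjusted p under 0.05. The 6 filled points are all in the step from 8 to 10 weeks and below 0; relative to endocrine genes none of the 9 passed in that step.

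Relative to the 12 endocrine genes, the question is whether a receptor fell with those genes or apart from them. On this scale the median of all genes moved to 0.82 on the log2 scale between 4 and 12 weeks, with 80.8% of genes higher and 0.84% lower, so that a receptor that is higher shares that direction with most genes. Of the endocrine genes themselves, 2 were lower, 1 (Chgb) was higher and 9 did not pass. The genes in that list were chosen as general endocrine markers and include none of the receptors.

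On the endocrine scale, 5 of 9 receptors passed between 4 and 12 weeks. Glp1r was higher by 0.62 (SE 0.11, edgeR adjusted p = 0.000235), Gcgr by 0.46 (SE 0.10, 0.00133), Sstr3 by 0.44 (SE 0.10, 0.00135) and Chrm3 by 0.33 (SE 0.13, 0.0278), each in log2 units. All 4 lay below the median of all genes on this scale. Casr was lower by 0.24 (log2 fold change -0.24, SE 0.08, edgeR adjusted p = 0.0150), against a share of 0.84% of all genes lower. That value lay within the range of the 12 endocrine genes that set the scale, which was -0.26 to 0.71. Past the threshold, 2 of those 12 were lower and 1 higher. Ffar1 at 0.02 (SE 0.07) and Gpr119 at 0.01 (SE 0.17) lay close to 0, and Adra2a at 0.21 (SE 0.11, 0.0858) and Gipr at -0.21 (SE 0.12, 0.128) did not pass.

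Some of these calls turn on single mice. Without the 4-week mouse of replicate 3 the count was 3, as Chrm3 (log2 fold change 0.24, edgeR adjusted p = 0.122) and Casr (-0.21, 0.0596) no longer passed. Chrm3 also did not pass without the 12-week mouse of replicate 3 (0.20, edgeR adjusted p = 0.156) or with the scale set by 10 beta-cell genes (0.33, 0.0543), nor Casr without the 12-week mouse of replicate 1 (-0.20, 0.0594). Gipr passed without the 4-week mouse of replicate 1 (-0.33, 0.0281), and Adra2a passed without the 12-week mouse of replicate 2 (0.28, 0.0397) and when Chgb was left out of the list (0.27, 0.0345). Glp1r, Gcgr and Sstr3 passed in every alternative run on this scale.

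**Figure D3:**
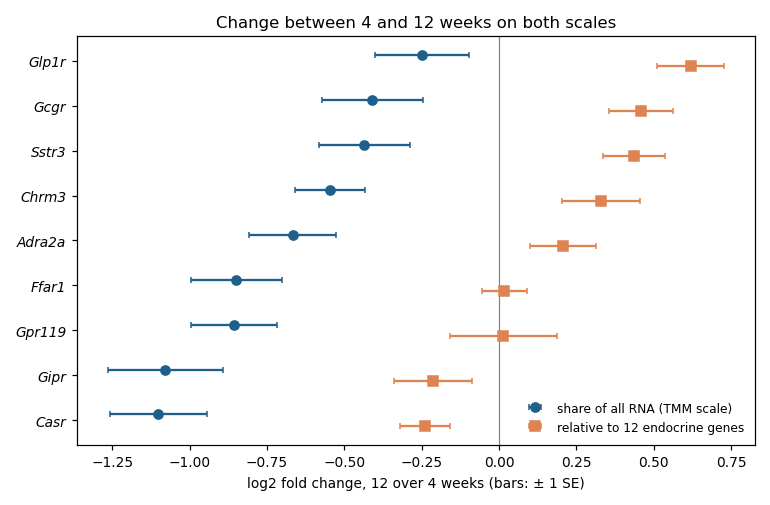
Log2 fold change of 12 over 4 weeks (x axis, bars ± 1 SE) for each receptor (rows) on the TMM scale (blue circles) and relative to 12 endocrine genes (orange squares). All 9 circles are left of 0; on the endocrine scale Glp1r, Gcgr, Sstr3 and Chrm3 are right of 0 past the threshold, Casr left of it, and the order of the receptors is the same on both scales.

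By mouse, the log2 level of Glp1r minus the mean log2 level of the 12 endocrine genes was -2.83, -2.76 and -2.82 at 4 weeks and -2.35, -2.33 and -2.28 at 6 weeks. All 12 mice of 6 weeks or more were above the 3 mice of 4 weeks, the lowest being a 10-week mouse at -2.61. The step from 4 to 6 weeks was 0.48 on this scale (SE 0.11, edgeR unadjusted p = 0.000707), but did not pass after adjustment (adjusted p = 0.234), and 0 of all genes passed in that step. Casr was at -3.46, -3.47 and -3.38 at 4 weeks and -3.75, -3.57 and -3.71 at 12 weeks, with no overlap. How many of all genes separate in these ways on this scale was not counted. Between 4 and 12 weeks 80.8% of genes were higher on it and 0.84% lower.

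Ffar1 kept within -1.74 to -1.53 over all 15 mice, the narrowest band of the 9, with means between -1.65 and -1.59 at the 5 ages. In the test over all 5 ages on this scale Ffar1 had an edgeR adjusted p of 0.962, and 5 of 9 receptors passed (Glp1r, Gcgr, Sstr3, Chrm3 and Casr) where 80.4% of all genes did. That count was 3 without the 6-week mouse of replicate 1, and Casr (edgeR adjusted p = 0.0428) did not pass in 14 of 18 alternatives, with values of up to 0.109. Gpr119 had its lowest mean at 8 weeks (-5.48 ± 0.28, SD, n = 3) and means of -5.07 ± 0.17 and -5.05 ± 0.15 at 4 and 12 weeks, a course that did not pass the test over the ages (edgeR adjusted p = 0.147). In the step from 8 to 10 weeks 0 of 9 receptors passed on the endocrine scale, where 51.7% of all genes were higher and 0.254% lower. Casr came nearest at -0.19 (SE 0.08, edgeR adjusted p = 0.0635), and passed without the 8-week mouse of replicate 3 (-0.24, 0.0366) or the 10-week mouse of replicate 3 (-0.23, 0.0352).

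Ratios of counts between receptors within a mouse need no scaling. These pairs were chosen after the values were seen and are given as a description. Glp1r had 1.55, 1.64 and 1.48 counts for each count of Casr in the 3 mice of 4 weeks, and 3.41, 2.19 and 2.93 in those of 12 weeks. The 4-week mean ratio of 1.56 ± 0.0818 compared with 2.31 ± 0.152 in the mice of 6 weeks, 2.31 ± 0.244 in those of 8, 2.31 ± 0.260 in those of 10 and 2.84 ± 0.613 in those of 12 weeks (SD, n = 3 each), and the groups of 4 and 6 weeks did not overlap. Ffar1 had 3.49 ± 0.0732 counts for each count of Casr at 4 weeks and 4.18 ± 0.271 at 12 weeks. Glp1r had 1.01 ± 0.137 counts for each count of Gipr at 4 weeks and 1.80 ± 0.416 at 12 weeks. The ages of 4 and 12 weeks did not overlap for any of these 3 ratios.

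Levels per length can be compared between receptors. By the CPM per kilobase of annotated exon, averaged over all mice, the order was Ffar1 (56.2), Sstr3 (41.1), Adra2a (30.6), Gipr (30.4), Glp1r (23.6), Casr (13.4), Gcgr (10.7), Gpr119 (8.57) and Chrm3 (5.92). By the deposited TPM, which is also per length, Glp1r came first with a mean of 199.9 TPM over the 15 mice (142 to 241), ahead of Ffar1 with 120.5 TPM (92.7 to 141). The length behind the deposited TPM of Glp1r works out at 1480 bases, against 5811 bases of exon in GENCODE M21. Its place in the order therefore depends on the gene model. The first order divides the deposited counts of Glp1r by a length other than the one behind the deposited TPM. The same holds, with smaller differences, for Chrm3, Adra2a and Sstr3. By TPM, Gipr (40.8 to 87.3 TPM) did not overlap Casr (19.5 to 36.4 TPM), and Sstr3 and Adra2a, Adra2a and Gipr, and each pair of neighbours among Casr, Gcgr, Gpr119 and Chrm3 overlapped in their ranges over the mice.

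Among genes with a mean of at least 1 CPM (14560 candidates), the ones whose log2 CPM ran most like that of a receptor over the 15 mice were named by Pearson's r as a description. Points share the libraries and the same change in composition with age, and no test was made. Casr was closest to Efcab1 (r = 0.997) and Maged1 (0.993), Ffar1 to Rab2a (0.989) and to Casr itself (0.987), and Gipr to Sepsecs (0.985) and Anapc5 (0.984). Glp1r was closest to Lrp3 (0.972) and Shc2 (0.964), Gcgr to Tmem246 (0.969) and Sarm1 (0.960), Sstr3 to Zfp358 (0.969) and Tcaf1 (0.959), and Adra2a to Ypel2 (0.969) and Jazf1 (0.962). Gpr119, with Rassf10 (0.938) and Spsb4 (0.936), and Chrm3, with Magi2 (0.937) and Bbs4 (0.933), had the lowest values. With the age means taken out, r with the mean of the endocrine genes was 0.950 for Ffar1 and 0.946 for Casr, and 0.477 for Chrm3 and 0.167 for Gpr119, over 15 mice.

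The other genes of these signalling routes were taken from lists of ligands, of other islet receptors and of the proteins that act after the receptors. The counts that follow are for 12 against 4 weeks on the TMM scale, where the background was 27.2% lower and 26.3% higher. Counts on the endocrine scale stand against 0.84% of all genes lower and 80.8% higher. Leukocyte and mesenchymal genes rose between the same ages, and their part in any increase in these lists was not tested. Of 8 ligand genes tested (9 listed, with the incretin-cutting peptidase Dpp4 among them), 3 fell, 0 rose and 5 did not pass. Gcg, which encodes glucagon and GLP-1, had a log2 fold change of -1.37 (SE 0.15, edgeR adjusted p = 0.000133), Ppy, pancreatic polypeptide, of -1.78 (SE 0.31, 0.000660) and Pyy, peptide YY, of -1.76 (SE 0.24, 0.000280). These 3 also fell on the endocrine scale. Sst, somatostatin, was at -0.39 (SE 0.17, 0.0726) and did not pass, and on the endocrine scale it was higher by 0.47 (edgeR adjusted p = 0.00348).

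Of 43 other islet receptors tested (48 in the table), 20 fell, 7 rose and 16 did not pass. The receptors that rose included P2ry14, a receptor for UDP-sugars (from 0.796 to 5.60 CPM, log2 fold change 2.82, SE 0.61, edgeR adjusted p = 0.00226). Those that fell included Mc4r, a melanocortin receptor (from 1.28 to 0.357 CPM, -1.83, SE 0.53, edgeR adjusted p = 0.0112). Drd2, a dopamine receptor, also passed (edgeR adjusted p = 0.0159), but its mean of 0.0439 CPM at 12 weeks lay under the level of 3 counts in those libraries (0.0943 to 0.1 CPM), and no fold is given. Neither passed on the endocrine scale (edgeR adjusted p = 0.0756 for Mc4r and 0.0503 for Drd2), where 1 of the 43 was lower and 23 higher.

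Of 21 genes of the Gs and cAMP arm, 10 fell, 4 rose and 7 did not pass. Gnas, which encodes the alpha subunit of Gs, fell by 0.72 (SE 0.09, edgeR adjusted p = 0.000175) and Rapgef4, a cAMP-activated exchange factor, by 0.61 (SE 0.12, 0.00152). The adenylyl cyclase genes Adcy3 and Adcy5 rose by 0.81 (SE 0.19, 0.00397) and 0.49 (SE 0.13, 0.00821). On the endocrine scale 0 of 21 were lower and 18 higher, and Gnas did not pass (0.15, edgeR adjusted p = 0.0950).

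Of 16 genes of the Gq and phospholipase C arm, 6 fell, 7 rose and 3 did not pass, and on the endocrine scale all 16 were higher. Plcb2, a phospholipase C, and Gna15, an alpha subunit of the Gq family, are both known in blood cells and rose by 4.07 (from 1.90 to 32.1 CPM, SE 0.71, edgeR adjusted p = 0.000701) and 2.51 (from 1.02 to 5.82 CPM, SE 0.57, 0.00300). Gna11, of the same family and widely expressed, fell by 0.47 (SE 0.12, 0.00503) and Itpr3, a calcium-release channel, by 0.41 (SE 0.12, 0.0142). The leukocyte genes given above rose between the same groups, and their part in these increases was not tested.

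Of 14 genes of the Gi arm and its regulators, 10 fell, 2 rose and 2 did not pass, with 7 higher and 0 lower on the endocrine scale. Kcnj6, a potassium channel opened by G proteins, fell by 1.14 (SE 0.24, edgeR adjusted p = 0.00173) and Gnaz, an alpha subunit, by 0.88 (SE 0.14, 0.000448), while Rgs2, a regulator of G-protein signalling, and Gnai2 rose by 0.96 (SE 0.24, 0.00531) and 0.59 (SE 0.09, 0.000408). Among 10 receptor kinases, arrestins and accessory proteins, 1 fell, 6 rose and 3 did not pass. All 10 were higher on the endocrine scale, as were 80.8% of all genes. Leukocyte genes also rose, and their part in the increases of this paragraph was not tested. Arrb1, beta-arrestin, rose by 1.90 (SE 0.23, 0.000175) and Ramp1, an accessory protein of receptors, by 1.57 (SE 0.25, 0.000460), while Adrbk2, a receptor kinase, fell by 0.46 (SE 0.08, edgeR adjusted p = 0.000633).

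**Figure D4:**
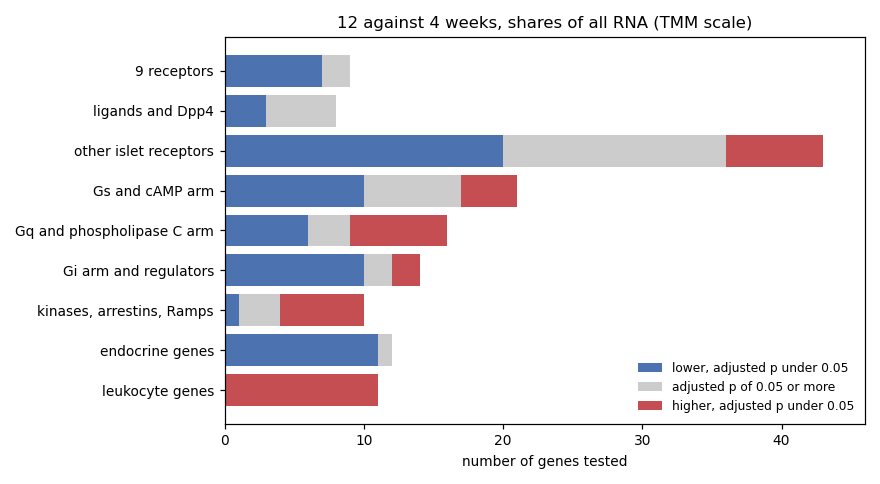
Number of genes tested (x axis) in each list (rows) that were lower (blue), not past the threshold (grey) or higher (red) at 12 against 4 weeks on the TMM scale. The 9 receptors (7 lower, 0 higher) and the endocrine genes (11 of 12 lower) are without a red part and the leukocyte genes are all red (11 of 11), while kinases, arrestins and Ramps have 6 of 10 higher; on the endocrine scale 1 of the 9 receptors was lower and 4 higher.

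The labelled tissue was checked against its markers. All 10 beta-cell genes, 7 alpha-cell genes and 4 delta-cell genes listed were measured in every age group, with summed levels of 120449 to 286005 CPM for the beta-cell genes. Between 4 and 12 weeks 10 of 10 beta-cell genes, 7 of 7 alpha-cell genes and 2 of 4 delta-cell genes fell, with median log2 fold changes of -0.84, -1.46 and -0.44. On the endocrine scale 0 of 10 beta-cell genes passed, 6 of 7 alpha-cell genes were lower and 3 of 4 delta-cell genes were higher. Which cells the receptor transcripts came from, endocrine or other, was not measured.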

How the data were processed

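RNA was measured in islets of 15 NOD mice, grouped by the age in the labels. Per the study's methods, polyadenylated RNA was sequenced as read pairs, and CLC Genomics Workbench was run at its defaults to trim, align and count the reads. The submitters' processing notes name mm10. The deposited counts are whole reads per gene, not normalized by the authors. The deposited TPM values, which the authors' software computed per transcript length and library, were used only to compare levels between receptors. A further 30 per-sample columns were not used here.

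Genes were filtered by filterByExpr, scaled by TMM and fitted with edgeR 4.0.16 (glmQLFit, glmQLFTest) in R 4.3.3, with all 5 ages in the fit and no covariate. The contrasts were each age against the preceding one, 12 against 4 weeks, and all ages jointly, with Benjamini-Hochberg adjustment over the 16554 genes and a threshold of 0.05. A second fit took its scale from 12 endocrine genes. The pipeline was tested on simulated data. No mice agreed within sampling noise (chi-square per degree of freedom 15.9 to 127 within an age). The receptors and lists were chosen with earlier results of these data known. Besides the receptors, the text names the 2 largest increases and decreases past the threshold in each signalling list (1 gene that this rule names is not reported here), the 2 genes most like each receptor, overlapping genes and, chosen after their values were seen, Gcg, Sst and Chgb. Gene regions are those of the deposited table, identical to GENCODE M21 for 5 of the 9 receptors, and exons come from GENCODE M21. The alternatives were DESeq2 1.42.0 and its size factors, library totals, no filter, only the ages compared, the edgeR exact test, the study's threshold, each mouse left out, the replicate number as a block, a beta-cell scale and, chosen after seeing the data, the endocrine list without Chgb. Figures used Python 3.11.15 and matplotlib 3.10.9.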

Additional observations from a re-analysis of the deposited data

How the results depend on the processing

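The count of receptors that fell between 4 and 12 weeks stayed at 5 to 9 of 9 over 23 alternatives, and the fold changes of all 9 kept their sign in them on the scale of all RNA. How many of all genes fell in each of these settings is not given here. The deposited TPM was not among them, and its mean for Glp1r was higher at 12 weeks (187) than at 4 weeks (171). Library totals without TMM factors moved the all-gene median (12 against 4 weeks, log2) from -0.05 to 0.20, with 78.3% of the called genes higher at 12 weeks against 49.2% under TMM. The 6 receptors called lower at 10 against 8 weeks became 0 with the replicate block, with only the ages compared in the fit and with the edgeR exact test, and ranged from 0 to 8 with each mouse left out. Over all genes that step gave 2776 calls, 0 with the block, 0 with only those ages and 140 with the exact test. It also gave 0 in each fit with a mouse left out that called 0 receptors, and the all-gene count of the fit that called 8 is not given here. At 6 against 4 weeks, 1 receptor (Glp1r) passed with only those ages or the exact test (141 and 265 of all genes, against 15), and at 8 against 6 weeks 1 (Gpr119) passed with DESeq2 (558 of all genes, against 0). Over all 5 ages, 7 receptors passed on library totals against 9. Relative to endocrine genes, the count with each mouse left out ranged from 0 to 1 at 10 against 8 weeks, from 3 to 6 at 12 against 4 weeks and from 3 to 6 in the test over all ages. The cause was not tested.

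Some differences near 0 changed sign. At 8 against 6 weeks, library totals gave log2 fold changes of 0.0125 for Glp1r, 0.0175 for Casr and 0.102 for Gcgr. Gcgr in that step was also above 0 with DESeq2's size factors (0.0141), DESeq2 (0.0138), only those ages (0.00632) and the exact test (0.00620). At 12 against 10 weeks, Sstr3 was at -0.00457 with no filter. Relative to endocrine genes, Sstr3 was at 0.00186 on the beta-cell scale at 10 against 8 weeks, and Ffar1 at 0.00704 without Chgb at 12 against 10 weeks. With each mouse left out, values at 6 against 4 weeks ran from -0.00497 to 0.200 for Gipr, -0.247 to 0.0102 for Adra2a and -0.0631 to 0.0675 for Sstr3. At 8 against 6 weeks they ran from -0.104 to 0.0933 for Gcgr, -0.0404 to 0.217 for Adra2a, -0.0371 to 0.0935 for Sstr3 and -0.177 to 0.0275 for Casr. At 12 against 10 weeks they ran from -0.0716 to 0.305 for Glp1r, -0.176 to 0.190 for Gcgr, -0.300 to 0.00825 for Ffar1, -0.139 to 0.0940 for Adra2a and -0.143 to 0.233 for Sstr3. Relative to endocrine genes, the ranges at 6 against 4 weeks were -0.0537 to 0.0205 for Ffar1, -0.107 to 0.0443 for Chrm3, -0.134 to 0.0564 for Adra2a and -0.215 to 0.0125 for Gpr119. For Ffar1 they were -0.0123 to 0.0936 at 8 against 6, -0.0410 to 0.0648 at 10 against 8, -0.0420 to 0.00779 at 12 against 10 and -0.00369 to 0.0336 at 12 against 4 weeks. For Gpr119 they were -0.0314 to 0.281 at 10 against 8 and -0.0622 to 0.117 at 12 against 4 weeks, for Sstr3 -0.0951 to 0.0492 at 10 against 8 and for Chrm3 -0.202 to 0.0148 at 12 against 10 weeks.

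The mice of different ages share only a replicate number. In no comparison did the mice of all 3 numbers deviate together (r of deviations from the age means -0.504 to 0.509), although at 8 against 6 weeks those of replicates 1 and 3 did (0.509 and 0.489). The replicate block left 7 receptors called at 12 against 4 weeks and 9 over all ages, and 5 in both on the endocrine scale. The test over all ages had no alternative with only the ages compared, the exact test or the study's threshold. Where a setting leaves out a mouse, 2 remain at that age. With 3 mice per age, an edgeR call rests on a spread shared over ages.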
